A study of Mus musculus with 32 samples.

Results

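Voltage-gated sodium channel subunits were represented by 7 genes, chosen by name: the β subunit genes Scn4b, Scn2b and Scn3b and the α subunit genes Scn1a, Scn2a, Scn3a and Scn8a. The platform's probe list assigned 20 probe sets to these symbols alone, of 34945 probe sets with a single symbol, and the 7 genes were among 18193 genes measured. The RNA was striatal and came from males aged 12 weeks of a CBA X C57Bl/6 stock. The mice were either wild type (WT) or R6/2, a Huntington's disease model that carries a transgene with a fragment of the human huntingtin gene. They received vehicle or NVP-HSP990 (HSP990), which blocks the chaperone HSP90 and was given by gavage at 12 mg/kg, and the treatment time was 4 h. Each RNA was hybridised to its own Affymetrix expression array. The groups held 7 WT vehicle, 10 WT HSP990, 7 R6/2 vehicle and 8 R6/2 HSP990 arrays. The R6/2 transgene is driven by the human huntingtin promoter and is not limited to a cell type. No label ties an array to a named animal, and p-values measure the spread between these arrays.

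Voltage-gated sodium channels carry the inward current of the action potential. The pore is a single large α subunit, and the genes named Scn1a, Scn2a, Scn3a and Scn8a encode the forms Nav1.1, Nav1.2, Nav1.3 and Nav1.6 found in brain. Small β subunits with a single membrane span bind the α subunit, change its gating and take part in cell adhesion. The β2 and β4 subunits, encoded by Scn2b and Scn4b, are linked to the α subunit by a disulphide bond, whereas β3, from Scn3b, binds without one. The β4 subunit is abundant in the medium spiny projection neurons of the striatum, and its cytoplasmic tail can block the open channel, which gives rise to resurgent current.

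Values are log2 expression values. A difference of 1 is a doubling on the array's scale, and the level of one probe set cannot be set against that of another. Array medians lay between 5.73 and 5.78. On 2 arrays, R6/2 HSP990 replicate 5 and WT vehicle replicate 5, the Gapdh control probe sets at the 3' end exceeded those at the 5' end by more than 2 log2 units. The 3' bias averaged over the Gapdh and Actb controls was 4.56 and 2.45 on these arrays, and its median over all arrays was 1.10. Among the R6/2 vehicle arrays, replicate 7 was the highest for 4 of the 7 genes, Scn4b, Scn2b, Scn3b and Scn8a, and the lowest for Scn1a. Its value for Hspa1a, a heat shock gene, was 7.82, against 6.01 to 6.57 on the other R6/2 vehicle arrays. Medium spiny neuron markers had a mean over 12 measured genes of 11.57 to 11.96 on WT vehicle arrays, against a median of 5.77 over all probe sets. Pan-neuronal markers had a mean of 11.41 to 11.68 on the same arrays. These levels cannot tell striatum from other brain tissue, and the striatal label was not tested.

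The results turn on Scn4b and Scn2b, which lie next to each other on chromosome 9 in the mouse annotation. RefSeq's promoter table (build GRCm38.p6) held 5 of the 7 members, both of these included. The 250 bases before the start site of each are shown, because these neighbouring genes were the pair that was lower in R6/2, and capitals mark CpG dinucleotides. Both windows are on the + strand, at chr9:45138374-45138623 for Scn4b and chr9:45117626-45117875 for Scn2b.
Scn4b: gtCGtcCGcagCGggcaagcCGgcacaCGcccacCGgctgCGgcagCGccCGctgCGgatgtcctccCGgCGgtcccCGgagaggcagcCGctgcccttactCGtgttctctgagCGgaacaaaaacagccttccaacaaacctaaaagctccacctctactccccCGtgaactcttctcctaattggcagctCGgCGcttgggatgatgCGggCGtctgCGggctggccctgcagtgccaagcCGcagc
Scn2b: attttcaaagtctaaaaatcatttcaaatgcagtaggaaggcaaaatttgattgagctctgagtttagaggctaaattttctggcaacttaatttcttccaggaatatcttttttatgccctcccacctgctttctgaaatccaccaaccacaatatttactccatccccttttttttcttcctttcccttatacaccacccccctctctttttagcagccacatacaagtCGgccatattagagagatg
The Scn4b window held 23 CpG dinucleotides and 66.0% G or C, and the Scn2b window held 1 and 38.4%. Over the 32851 mouse promoter windows of this length the medians were 6 CpG dinucleotides and 52.4%, so the windows of these neighbours lay on either side of the median. Motifs were searched in the same windows. Neither held a heat shock element dyad (GAANNTTC or TTCNNGAA, which can overlap each other) on either strand, and 6.69% and 7.17% of all promoter windows did. A GC box, spelled GGGCGG, was in neither window and in 32.7% of all. A TATA box, spelled TATAAA, was in neither and in 12.4% of all. A cyclic AMP response element, TGACGTCA, was in neither and in 1.55% of all. The absence of a match says only that these letters are not in the window.

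Each gene was read at its probe set with the highest mean. Of the 7 subunit genes, Scn4b and Scn2b were lower in R6/2 striatum and the other 5 did not pass the test. This held both on vehicle and under HSP990. Scn4b, the β4 gene, fell 6.91-fold on vehicle and 9.07-fold under HSP990. Scn2b, the β2 gene, fell 1.49-fold and 1.58-fold. On vehicle 21.5% of all genes passed the test in either direction and 9.6% were lower, and under HSP990 33.6% passed and 11.0% were lower. The share of 2 in 7 called lies near those in either direction, so the count by itself is no result about the subunit genes, and the sizes follow. The tests were limma's moderated test with Benjamini-Hochberg adjustment over 18193 genes.

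On vehicle, Scn4b lay at 12.16 to 12.75 in WT with a median of 12.46, and at 8.61 to 11.33 in R6/2 with a median of 9.43. Every R6/2 array was below every WT array, although the R6/2 vehicle group was spread widely (SD 0.98, n = 7), with replicate 7 at 11.33 and replicate 5 at 10.61. The log2 difference was -2.79 ± 0.26 (standard error of the fit), with a 95% confidence interval from -3.32 to -2.26 (limma adjusted p = 3.77e-09). Only 1 gene of the 18193 fell further, Abi3bp (log2 difference -3.19), which is named after its value was seen. Without R6/2 vehicle replicate 7 the difference was -3.07 ± 0.20 (limma adjusted p = 2.33e-12). Groups that did not overlap, with R6/2 lower, were seen for 2.37% of genes on vehicle.

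Under HSP990, Scn4b lay at 12.19 to 12.96 in WT with a median of 12.69, and at 9.0 to 10.0 in R6/2 with a median of 9.45. The groups were again separate, and here the R6/2 arrays were close together (SD 0.30, n = 8). The log2 difference was -3.18 ± 0.23, with an interval from -3.65 to -2.71 (limma adjusted p = 5.75e-12), and no gene of the 18193 fell further. Groups without overlap, with R6/2 lower, made up 3.36% of genes under HSP990.

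Scn2b on vehicle lay at 11.48 to 11.73 in WT with a median of 11.62, and at 10.44 to 11.55 in R6/2 with a median of 11.02. The ranges overlapped through 1 array: 6 of 7 R6/2 arrays were below the lowest WT array, and replicate 7 at 11.55 was not. The log2 difference was -0.57 ± 0.11, with an interval from -0.80 to -0.35 (limma adjusted p = 0.000246), and 702 genes fell further. It was -0.66 ± 0.10 without replicate 7 (limma adjusted p = 1.14e-05). Under HSP990 the WT arrays lay at 11.32 to 11.79 with a median of 11.69 and the R6/2 arrays at 10.67 to 11.13 with a median of 11.02, without overlap. The difference there was -0.66 ± 0.10 (limma adjusted p = 2.53e-06).

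The third β subunit gene, Scn3b, showed no such pattern. Its group means were 10.87 ± 0.14 (SD, n = 7) in WT on vehicle, 10.97 ± 0.26 (n = 7) in R6/2 on vehicle, 10.69 ± 0.16 (n = 10) in WT under HSP990 and 10.76 ± 0.16 (n = 8) in R6/2 under HSP990. The genotype differences were 0.09 on vehicle (95% interval -0.10 to 0.29) and 0.07 under HSP990 (-0.11 to 0.24). Without R6/2 vehicle replicate 7 the former was 0.01 ± 0.09. These intervals leave room for small changes and lie far from the fall of Scn4b.

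**Figure D1:**
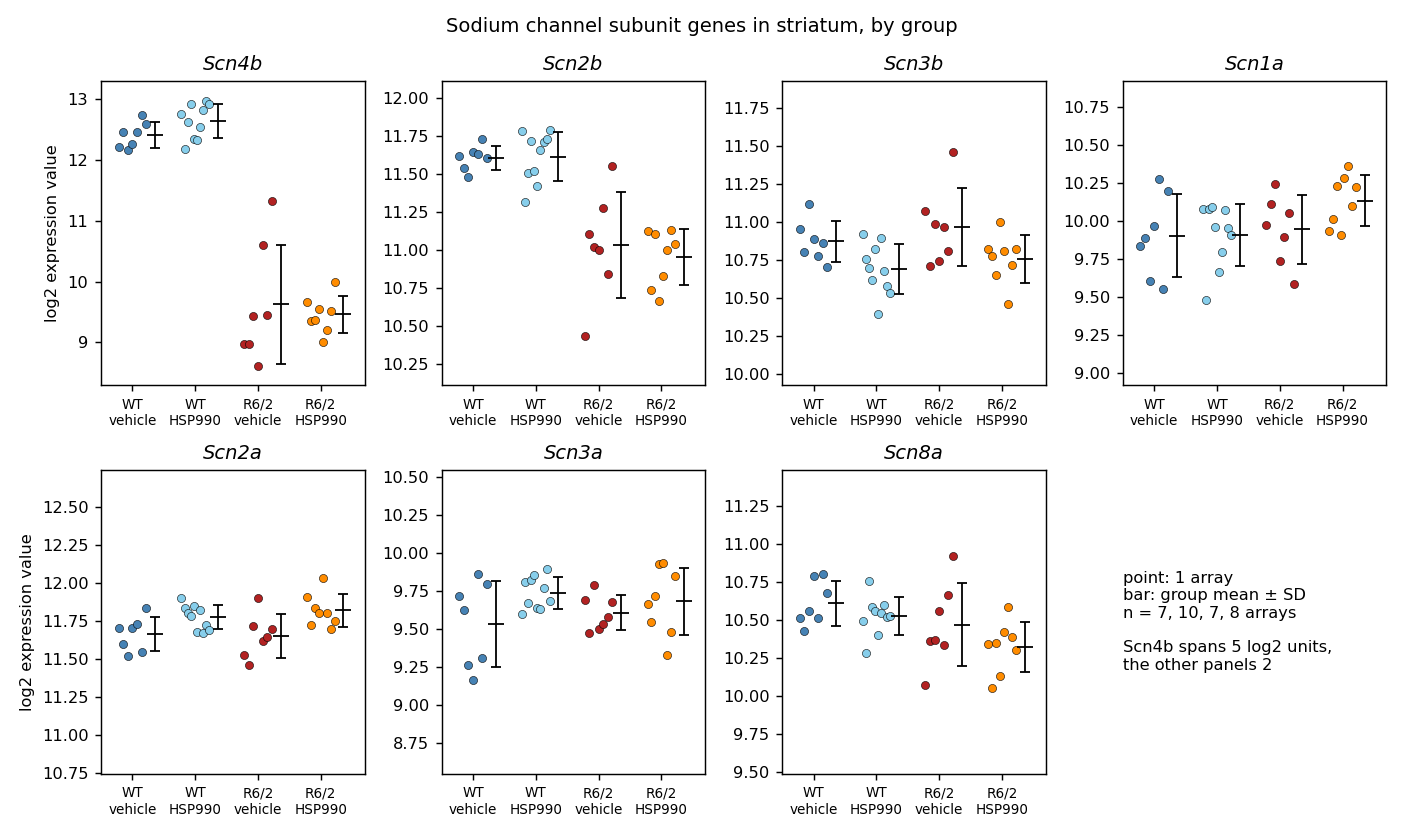
Log2 expression values of the 7 sodium channel subunit genes on each of the 32 arrays (points), by group, with the group mean ± SD beside them (7, 10, 7 and 8 arrays). The Scn4b axis covers a wider range than the others; its R6/2 arrays reach 11.33 on vehicle and 10.0 under HSP990, below every WT array on the same treatment, while the groups of the 5 genes other than Scn4b and Scn2b overlap.

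Among the α subunit genes, none passed the test between genotypes at its probe set with the highest mean. Some other probe sets of Scn8a and Scn2a were called, as given below. Scn1a, which is prominent in fast-spiking interneurons, had means of 9.90 ± 0.27 (SD, n = 7) in WT and 9.94 ± 0.22 (n = 7) in R6/2 on vehicle. Under HSP990 its means were 9.91 ± 0.21 (n = 10) and 10.13 ± 0.17 (n = 8), a difference of 0.22 with an interval from 0.02 to 0.43 (limma adjusted p = 0.0884), and 5 of 8 R6/2 arrays were above the highest WT array. Over 44 alternatives it ranged from 0.05 to 0.26 and passed in 1, quantile normalization (limma adjusted p = 0.0427, against up to 0.68 elsewhere).

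Scn2a, the α subunit of much of the axon initial segment, had the smallest genotype differences of the 7 genes at its representative probe set, -0.01 and 0.04. Its means were 11.66 ± 0.11 (n = 7) and 11.65 ± 0.14 (n = 7) on vehicle and 11.78 ± 0.08 (n = 10) and 11.82 ± 0.11 (n = 8) under HSP990. The genotype differences had intervals from -0.14 to 0.12 and from -0.07 to 0.16.

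Scn3a, an α subunit best known from embryonic brain, gave means of 9.53 ± 0.28 (n = 7) in WT and 9.61 ± 0.12 (n = 7) in R6/2 on vehicle. Under HSP990 they were 9.74 ± 0.10 (n = 10) and 9.68 ± 0.22 (n = 8). The differences, 0.07 and -0.06, were smaller than the spread between arrays.

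Scn8a, the α subunit of mature initial segments and nodes of Ranvier, stood nearest to the threshold among the genes that were not called. Its means were 10.61 ± 0.15 (n = 7) in WT and 10.47 ± 0.27 (n = 7) in R6/2 on vehicle, a difference of -0.14 (interval -0.34 to 0.05, limma adjusted p = 0.323), which was -0.22 without R6/2 vehicle replicate 7 (limma adjusted p = 0.0746). Under HSP990 they were 10.53 ± 0.13 (n = 10) and 10.32 ± 0.17 (n = 8), a difference of -0.21 (interval -0.38 to -0.03, limma adjusted p = 0.0604). Leaving out R6/2 HSP990 replicate 6 or WT HSP990 replicate 2 gave -0.24 and -0.23 (limma adjusted p = 0.0282 and 0.0334). Without R6/2 vehicle replicate 1 or 7 the difference stayed at -0.21 (limma adjusted p = 0.0384 and 0.0326). These vehicle arrays are not in the comparison and enter through the spread that the fit shares over the 4 groups.

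**Figure D2:**
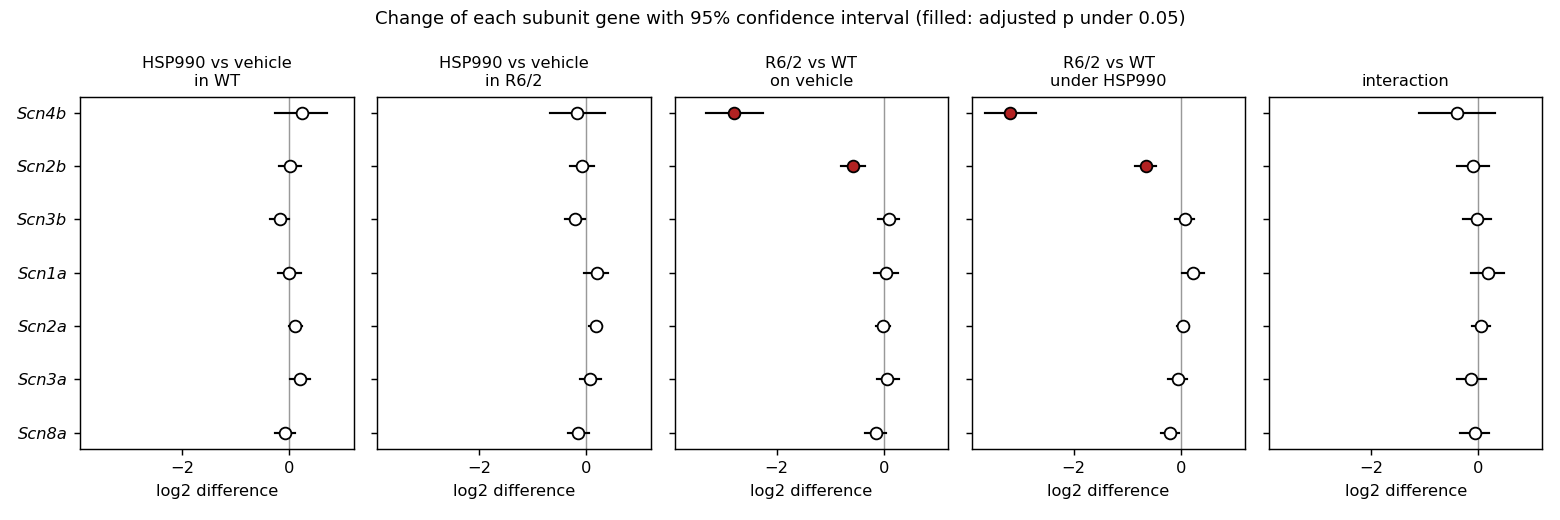
Log2 difference of each subunit gene (points) with its 95% confidence interval (lines) in the 5 comparisons; filled points passed an adjusted p under 0.05. Scn4b and Scn2b are filled in both comparisons of R6/2 with WT, and no gene is filled in the 2 comparisons of HSP990 with vehicle or in the interaction.

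Whether the subunit genes differed from each other in their genotype change was tested for all 21 pairs on each treatment, with exact two-sided permutation tests over arrays adjusted over the 42 tests. Scn4b differed from each of the 6 other genes in both comparisons, and so did Scn2b. The change of Scn4b exceeded that of Scn2b by -2.21 ± 0.29 log2 units on vehicle (exact permutation p = 0.000583, the smallest that 7 against 7 arrays can give; adjusted p = 0.00136). Under HSP990 it exceeded it by -2.52 ± 0.12 (exact permutation p = 2.29e-05, the smallest possible with 10 against 8 arrays; adjusted p = 9.6e-05). On vehicle these made up all 11 pairs called, and the remaining 10 pairs were not.

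Under HSP990, 13 pairs were called, and the 2 beyond those of Scn4b and Scn2b both involved Scn8a. The change of Scn1a lay above that of Scn8a by 0.43 ± 0.06 (exact permutation adjusted p = 9.6e-05), and the change of Scn2a lay above that of Scn8a by 0.25 ± 0.08 (exact permutation adjusted p = 0.0104). The latter fell to 0.15 with the 3' bias of the arrays taken out (exact permutation adjusted p = 0.0628), and to 0.01 with all probe sets of a gene averaged (exact permutation adjusted p = 0.903). The main pair tests used the representative probe sets alone. Between genotypes under HSP990, the other probe sets of Scn1a changed by 0.06 and -0.13. Those of Scn8a changed by 0.13, -0.59, -0.85 and -0.01. The weakest of the Scn2b pairs was that with Scn1a on vehicle, at -0.61 ± 0.22 (exact permutation adjusted p = 0.0306).

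Markers of medium spiny neurons moved with genotype as well, and this is a bulk tissue, in which fewer cells of a type and less RNA per cell cannot be told apart. Of the 12 measured markers, 11 were lower in R6/2 on vehicle and 11 under HSP990, the exception in both being Tac1, the substance P precursor gene. The median log2 change of the 12 was -1.48 on vehicle and -1.57 under HSP990, beside medians of -0.005 and 0.038 over all genes. The mean over the markers was 11.57 to 11.96 on WT vehicle arrays and 9.51 to 10.97 on R6/2 vehicle arrays. Under HSP990 it was 11.54 to 12.00 and 9.70 to 10.64. On R6/2 vehicle replicate 7 it was 10.78 and on replicate 5, which was the second highest of its group for Scn4b, 10.97.

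Scn4b fell further than all 12 markers in both comparisons, and Scn2b fell less than 11 of the 12. Adcy5, the main striatal adenylyl cyclase gene, changed by -1.67 on vehicle (limma adjusted p = 1.62e-09), Rgs9, a regulator of G protein signalling, by -1.88 and Arpp21, a cyclic AMP-regulated phosphoprotein gene, by -1.18. The largest falls among the markers were those of Ppp1r1b, the DARPP-32 gene, on vehicle (-2.0) and of Gpr6, an orphan receptor gene, under HSP990 (-2.35). Bcl11b (-0.59 and -0.88) was nearest in size to Scn2b among those called, and these last 3 genes and Tac1 are named after their values were seen. The differences between the subunit genes and the markers were not tested, and the part of the neuronal markers in the fall of Scn4b and Scn2b was not tested.

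**Figure D3:**
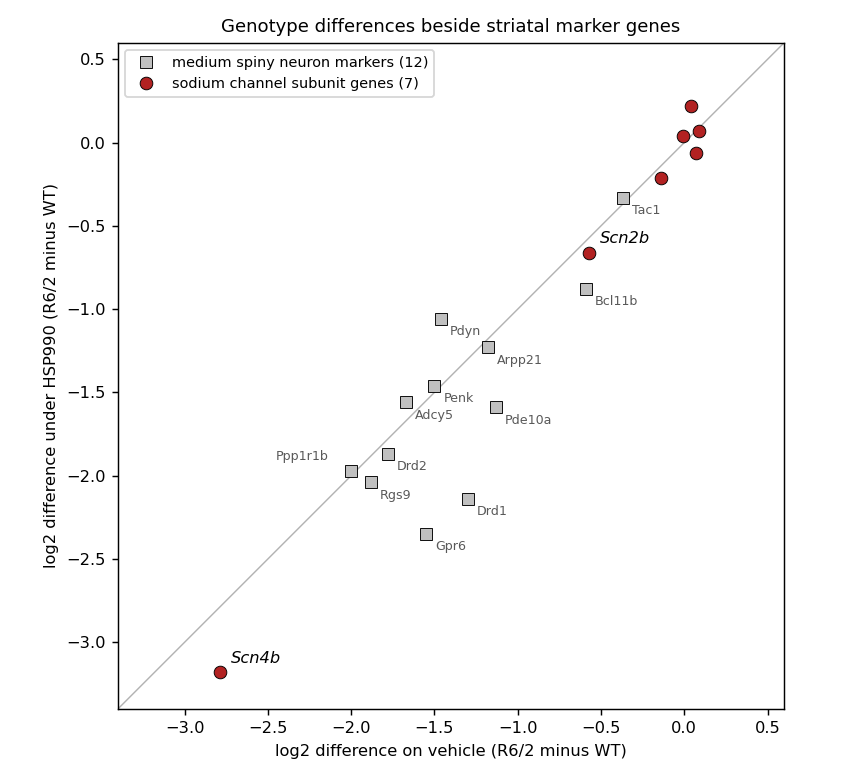
Log2 difference between R6/2 and WT on vehicle (x axis) against that under HSP990 (y axis) for the 7 subunit genes (circles) and the 12 measured medium spiny neuron markers (squares), with the line of equal differences. Scn4b lies at -2.79 and -3.18, beyond all markers; Scn2b lies at -0.57 and -0.66, and the other 5 subunit genes lie near 0.

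Other neuronal markers moved less. Of 9 pan-neuronal genes, 3 were lower (Rbfox3, Eno2 and Tubb3) and 2 higher (Stmn2 and Map2) on vehicle, with a median of -0.05. Under HSP990, 4 were lower and 1 higher, with a median of -0.18. With the 3' bias as a covariate 1 was lower, and 2 were once the pair of strongly biased arrays was left out. Nefm, a neurofilament gene with a log2 difference of -0.68, was the gene lower under HSP990 that was not lower on vehicle. Of 10 interneuron markers 4 were lower on vehicle, namely Npy (-0.94), Nos1 (-0.70), Slc18a3 (-0.70) and Sst (-0.54), and 6 under HSP990. The median changes of the 8 marker lists for other regions and for glia, vessels and choroid plexus were -1.04 to 0.08 on vehicle and -0.42 to 0.14 under HSP990. On vehicle the lower genes were 2 of 6 for myelin, 1 of 7 for astrocytes and 1 of 5 for microglia, with none for cortex, neighbouring subcortex, oligodendrocyte precursors or endothelium. Under HSP990 they were 4 of 6 for myelin, 4 of 7 for astrocytes (with 1 higher), 3 of 5 for microglia and 1 of 5 each for oligodendrocyte precursors and endothelium, and none for cortex, subcortex or choroid plexus. With the 3' bias as a covariate the lower genes under HSP990 were 2 for myelin, 1 for astrocytes (with none higher), 2 for microglia, 1 each for oligodendrocyte precursors and cortex, and none for endothelium. The microglial call on vehicle was lost without R6/2 vehicle replicate 7. The median of -1.04 was that of the choroid plexus list, none of whose 5 genes was called and whose mean ranged from 6.08 to 10.46 over the arrays.

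HSP990 had no called effect on any of the 7 genes in either genotype. In WT, 0 of 7 passed limma's test with adjustment, 2 had an unadjusted p under 0.05, and 5.8% of all genes were called. In R6/2 the counts were also 0 of 7 and 2, with 3.09% of all genes called. For the interaction (how far the drug response of R6/2 differs from that of WT), 0 of 7 passed and 0 had an unadjusted p under 0.05, with 0.247% of genes called.

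Scn4b changed by 0.23 ± 0.24 in WT (interval -0.26 to 0.71) and by -0.17 ± 0.25 in R6/2 (interval -0.68 to 0.34) with the drug. Without R6/2 vehicle replicate 7 the latter was 0.12 ± 0.20. Scn2b changed by 0.01 (-0.20 to 0.21) and -0.08 (-0.30 to 0.14). No rise of Scn4b in R6/2 towards the WT level was detectable with or without that array. These standard errors share 1 spread over the 4 groups. The SD of Scn4b was 0.21 and 0.28 in WT and 0.98 and 0.30 in R6/2 (vehicle and HSP990). The WT interval is thus wider, and the R6/2 interval over all arrays narrower, than the groups' own spreads would give. In WT, 5 of 10 HSP990 arrays lay above every vehicle array. Over 44 alternatives the lowest limma adjusted p for Scn4b in WT was 0.274.

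The smallest unadjusted p-values with the drug were those of Scn2a in R6/2, 0.17 ± 0.06 (unadjusted limma p = 0.011, adjusted p = 0.149), and of Scn3a in WT, 0.20 ± 0.09 (unadjusted limma p = 0.0328, adjusted p = 0.213). Scn3b had differences of -0.18 in WT and -0.21 in R6/2 (limma adjusted p = 0.262 and 0.264), and the latter was -0.12 without R6/2 vehicle replicate 7 (limma adjusted p = 0.605). WT vehicle arrays of Scn3a ranged from 9.16 to 9.86 and WT HSP990 arrays from 9.6 to 9.89, so the groups overlapped. The Scn3a value moved with the 3' bias of the arrays (Pearson r = 0.50 over the 32 arrays after removal of group means, a description), more than that of Scn2a (0.34) or Scn3b (0.30). With the bias as a covariate the differences were 0.25 for Scn3a in WT, 0.13 for Scn2a in R6/2, and -0.16 in WT and -0.26 in R6/2 for Scn3b, and none was called. For the interaction, the estimate for Scn4b was -0.39 (interval -1.10 to 0.31) and for Scn2b -0.09 (-0.39 to 0.21). Without R6/2 vehicle replicate 7 they were -0.11 ± 0.27 and 0.00 ± 0.13, so most of both estimates came with that array.

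The separate probe sets gave a finer view of the genotype differences. With adjustment over 34945 probe sets, 4 of the 20 were lower in R6/2 on vehicle and 7 under HSP990, and none was higher. Of all probe sets, 17.1% and 29.8% were called in either direction. Those called lower made up 7.68% and 11.9% of all probe sets. For HSP990 against vehicle in WT, in R6/2 and for the interaction, limma called 0 of the 20, with 5.26%, 2.52% and 0.209% of all probe sets called. Scn4b had a single probe set, 1434008_at, so its fall rests on that one. For Scn2b, 2 of 3 probe sets were lower on each treatment: the representative 1436134_at, and the dim 1457144_at, which changed by -0.42 on vehicle (limma adjusted p = 0.048, and 0.0633 after quantile normalization) and by -0.67 under HSP990 (limma adjusted p = 0.000176). The third, 1430648_at, changed by -0.14 and -0.76 without passing the test (limma adjusted p = 0.835 and 0.0529). It followed the 3' bias of the arrays (r = -0.76), and with the bias as a covariate its differences were -0.33 and -0.20.

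Scn8a had 5 probe sets, which did not all give the same call. At 1439889_at the WT vehicle arrays lay at 9.16 to 9.49 with a median of 9.31 and the R6/2 vehicle arrays at 8.38 to 9.49 with a median of 8.87. There 5 of 7 R6/2 arrays were below the lowest WT array, and the difference was -0.39 ± 0.13 (limma adjusted p = 0.039). Under HSP990 the medians were 9.50 and 8.89 and the difference was -0.59 ± 0.12 (limma adjusted p = 0.000257). With the 3' bias as a covariate both stayed called, at -0.44 and -0.46, whereas without the 2 arrays of strong bias the vehicle difference was again -0.39 but not called (limma adjusted p = 0.0629). At 1457412_at of the same gene the differences were 0.11 and 0.13, and neither passed. The files do not say which stretch of the transcript each one reads.

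The remaining calls under HSP990 were 1451894_a_at of Scn8a (-0.85, limma adjusted p = 0.0451) and 1427281_at and 1445259_at of Scn2a (-0.64 and -0.45, limma adjusted p = 0.0162 and 0.0109). These 3 probe sets followed the 3' bias of the arrays closely, with r = -0.82, -0.86 and -0.69 over the 32 group-centred arrays, against 0.34 for the representative Scn2a probe set. The median bias was 1.46 on R6/2 HSP990 arrays and 1.04 on WT HSP990 arrays. With the bias as a covariate the differences were -0.20, -0.21 and -0.22 (limma adjusted p = 0.535, 0.204 and 0.142), and 4 of the 20 probe sets stayed called. Those 4 were 1434008_at of Scn4b, 1436134_at and 1457144_at of Scn2b and 1439889_at of Scn8a. Leaving out the 2 arrays of strong bias instead gave -0.69 for 1451894_a_at, -0.47 for 1427281_at and -0.39 for 1445259_at. Of these, 1445259_at then stayed called (limma adjusted p = 0.0233) and the others did not (limma adjusted p = 0.099 and 0.0517). None of the 3 probe sets of Scn1a, 2 of Scn3a and 2 of Scn3b was called in either comparison.

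**Figure D4:**
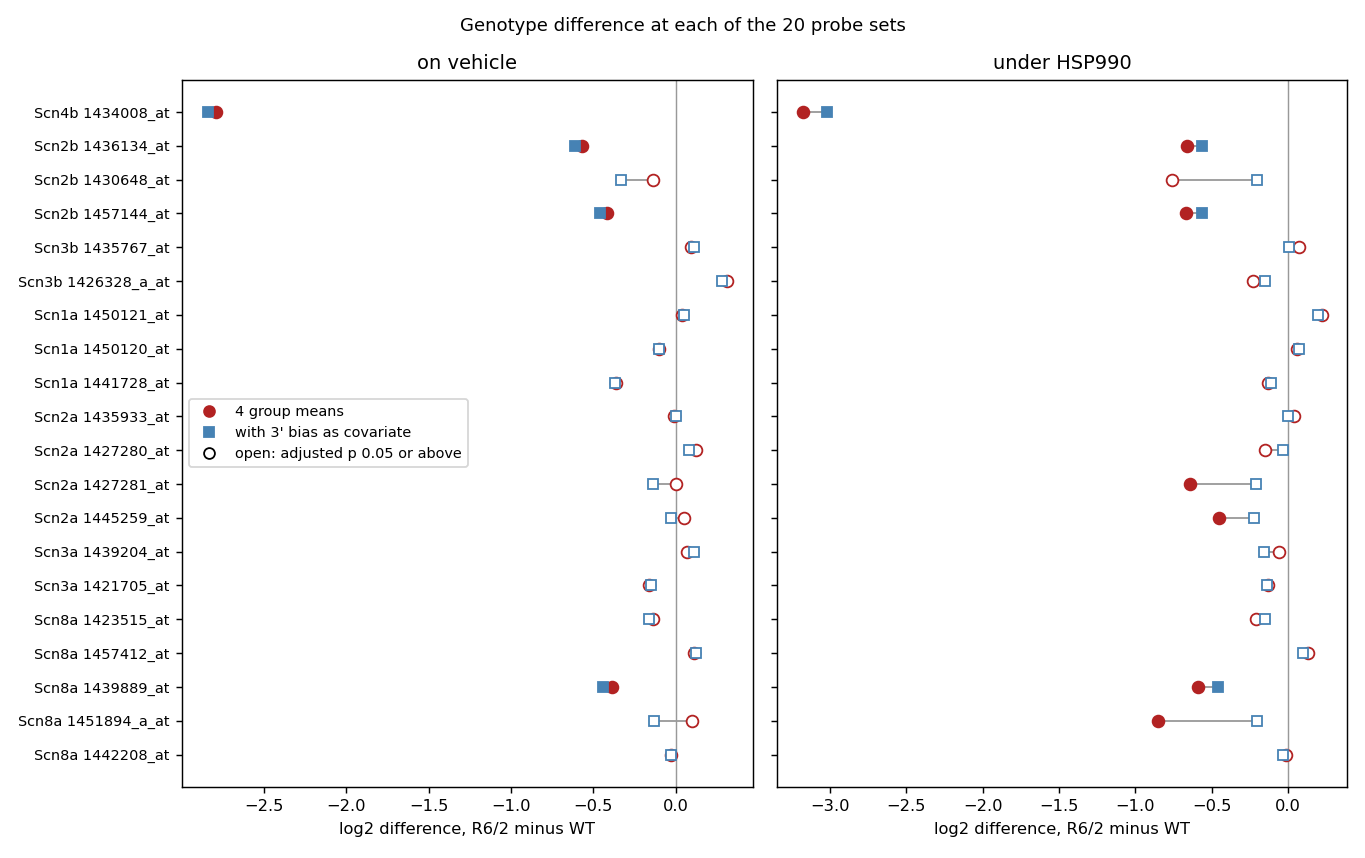
Log2 difference between R6/2 and WT at each of the 20 probe sets on vehicle (left) and under HSP990 (right), from the fit of group means (circles) and with the 3' bias of the arrays as a covariate (squares); filled symbols passed an adjusted p under 0.05. Under HSP990 the filled circles of Scn2a at -0.64 and -0.45 and of Scn8a at -0.85 are joined to open squares near -0.20. The squares of Scn4b, of 2 Scn2b probe sets and of 1439889_at of Scn8a stay filled.

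Within groups, the members varied together only in part. Correlations were taken for all 21 pairs over 32 arrays after removal of each group's mean, with 100000 permutations of arrays within groups and adjustment over the 21 pairs, and 2 pairs were called. Scn4b and Scn2b had Pearson r = 0.69 (permutation p = 0.0019, adjusted p = 0.040) and Spearman rho = 0.69 (permutation p = 9e-05, adjusted p = 0.0019). Scn2b and Scn8a had r = 0.61 (permutation p = 0.0044, adjusted p = 0.046) and rho = 0.36 (permutation p = 0.062, adjusted p = 0.32). Without the 2 arrays farthest from the median of Scn4b, r of Scn4b with Scn2b was 0.52. Without the 2 farthest from the median of Scn2b, r of Scn2b with Scn8a was 0.30, so the size of this relation rests on those arrays. By group it was 0.66 in WT vehicle, 0.42 in WT HSP990, 0.69 in R6/2 vehicle and 0.61 in R6/2 HSP990 arrays.

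By group, r of Scn4b with Scn2b was 0.63 in WT vehicle, 0.91 in WT HSP990, 0.74 in R6/2 vehicle and 0.30 in R6/2 HSP990 arrays. Its lowest value with any 1 array left out was 0.54, without R6/2 vehicle replicate 7 (permutation adjusted p = 0.268), and in 8 other such runs r was 0.66 to 0.69 and the adjusted p was also above the threshold. The call for Scn2b with Scn8a was lost in 17 of 32 runs, with the lowest r, 0.47 and 0.48, without R6/2 vehicle replicates 7 and 1. With the 3' bias of the arrays regressed out, r was 0.65 and 0.56 and neither pair was called (permutation adjusted p = 0.071 for both).

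**Figure D5:**
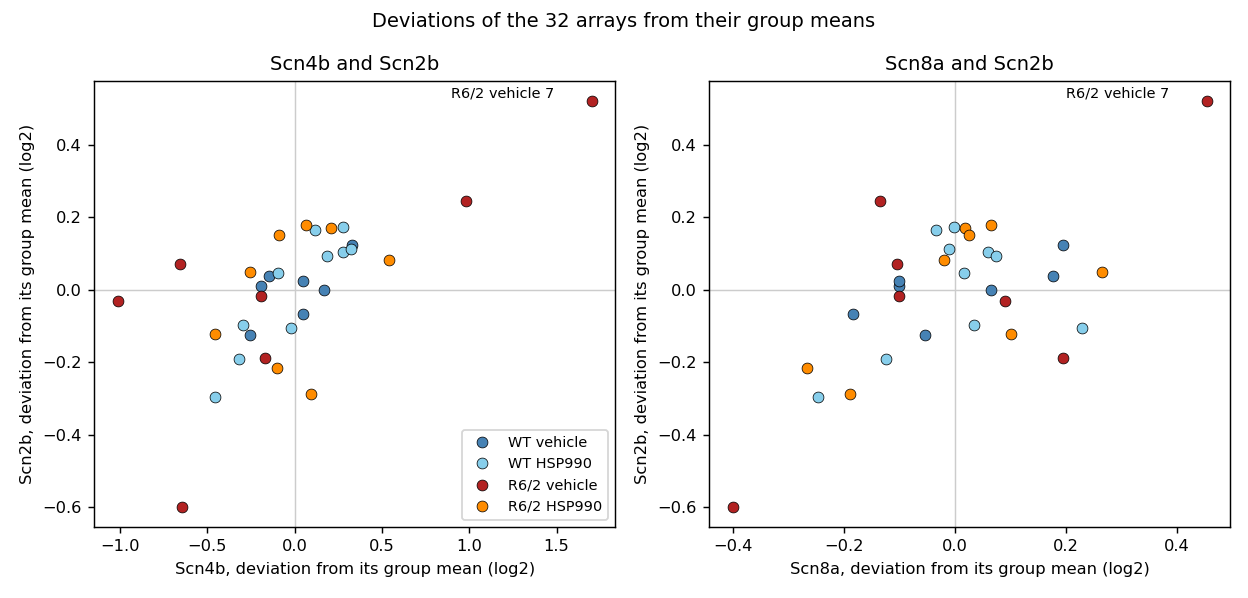
Deviation of each of the 32 arrays from its group mean, in log2 units, for Scn2b (y axes) against Scn4b (left, r = 0.69) and against Scn8a (right, r = 0.61), coloured by group. R6/2 vehicle replicate 7 is the highest array in both panels, and R6/2 vehicle replicate 1 is the lowest in both.

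The genes whose values most resembled each member over the 32 group-centred arrays were listed by Pearson r, as a description. For Scn4b they were Dgkh, a diacylglycerol kinase gene (r = 0.84, and 0.73 without R6/2 vehicle replicate 7), Arpp19 (0.84 and 0.74), Ppp3ca, the calcineurin catalytic subunit gene (0.83 and 0.74), Epha4, an ephrin receptor gene (0.83 and 0.73), and Lmo2 (0.81 and 0.77). For Scn2b they were Add2, the β adducin gene, with r = 0.82, and Pde4dip, Vps26b, Zcchc14 and Msra with r = 0.79 to 0.77. For Scn8a they were Hs3st4, Pgbd5, Stum, Slc24a2 and Trim9, with r = 0.87 to 0.83. These 3 sets shared no gene.

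For Scn3b the genes were Kbtbd11, Plekha2, Pdpk1, Sntb2 and Ryr1, with r = 0.86 to 0.76. For Scn1a they were Fut9, Atg5, Hibadh, Nrxn3 and Slc30a4, with r = 0.73 to 0.70. For Scn3a they were Rbis, Krt75, Atp13a3, Zdhhc6 and Sprr1a, with r = 0.76 to 0.73. For Scn2a they were Ccn4, Kiss1r, Ahr, Ppm1k and Coro2a, with r = 0.67 to 0.66, the weakest likeness among the 7. All these values share the same arrays, and with them RNA quality and dissection.

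Other genes of the sodium channel family gave calls in the opposite direction. Of 8 listed, 5 were measured, and Scn9a, the Nav1.7 gene best known from sensory neurons, was higher in R6/2 on both treatments. Its WT and R6/2 means were 5.10 and 6.12 on vehicle, a 2.02-fold difference (log2 1.02 ± 0.18, limma adjusted p = 8.22e-05). They were 5.13 and 6.27 under HSP990, a 2.20-fold difference without overlap between groups (log2 1.14 ± 0.16, limma adjusted p = 9.52e-07). Scn9a is a dim gene here: its 5 probe sets had means of 2.93 to 5.62, below the median of 5.77 over all probe sets. With adjustment over all probe sets, 1442810_x_at and 1442809_at were called on both treatments, and 1442333_a_at under HSP990.

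Nalcn, the gene of the sodium leak channel, was higher by 0.21 ± 0.06 on vehicle (limma adjusted p = 0.0166) and by 0.25 ± 0.06 under HSP990 (limma adjusted p = 0.000881). The second probe set of Nalcn, 1448083_at, gave 0.39 and 0.01 and was not called. Scn7a, a dim gene of mean 4.34, was called under HSP990 (0.49 ± 0.18, limma adjusted p = 0.0332) and was 0.44 and not called with the 3' bias as a covariate (limma adjusted p = 0.0968). Its other probe sets, 1427495_at and 1436043_at, gave -0.13 and 0.23 under HSP990 and were not called. Scn10a and Scn11a, with means of 3.27 and 4.38, were not called. The family list thus had 2 of 5 genes higher on vehicle and 3 of 5 under HSP990, and none lower, with medians of 0.21 and 0.25. Over all 18193 genes, 2160 were called higher on vehicle and 4110 under HSP990. Among the called genes alone, those higher made up 55.3% and 67.3%. These percentages are not shares of all genes measured, as the counts out of 5 are of the list. No test of this short list was run.

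The scaffold that holds sodium channels at the axon initial segment and node was mixed. Of 13 listed genes, 2 were higher and 2 lower in R6/2 on vehicle, with a median of -0.08. Nfasc, the neurofascin gene, was lower by 0.40 on the log2 scale (-0.40 ± 0.09, limma adjusted p = 0.00154) and Ank3, the ankyrin G gene that anchors the channels, changed by -0.25 ± 0.06 (limma adjusted p = 0.00206). Chl1, a cell adhesion gene, rose by 0.74 ± 0.16 (limma adjusted p = 0.000855), and Cntn1, the contactin 1 gene, by 0.30 ± 0.09 (limma adjusted p = 0.0127). Under HSP990, 1 was higher (Chl1, 0.51) and 3 were lower (Nfasc, -0.44; Ank3, -0.21; Ank2, -0.28), with a median of -0.12. The call of Ank2 was at the threshold (limma adjusted p = 0.0486) and was lost with the 3' bias as a covariate, at -0.19 (limma adjusted p = 0.238).

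Among the channels' partners and regulators, 17 of 21 listed genes were measured. Nedd4l, a ubiquitin ligase gene whose product acts on sodium channels, had the largest difference on both treatments. It changed by -0.75 ± 0.10 on vehicle (limma adjusted p = 2.95e-06) and by -0.96 ± 0.09 under HSP990, there without overlap (limma adjusted p = 1.4e-09). On vehicle the other calls were Rbfox3 (-0.33), Fgf11 (-0.48) and Rbfox1 (-0.42) as lower and Gpd1l (0.39) as higher, so 4 were lower and 1 was higher, with a median of 0.01. Without the pair of strongly biased arrays Rbfox1 changed by -0.40 on vehicle, a similar size that was not called (limma adjusted p = 0.0638). The Rbfox genes encode splicing regulators that act on many channel transcripts.

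Under HSP990, 6 partner genes were lower and 4 higher, with a median of -0.15. Fgf14, which encodes a cytoplasmic protein that binds the α subunit tail, changed by -0.53 ± 0.09 without overlap between genotypes (limma adjusted p = 3.06e-05). It was also the only listed partner called for the drug, falling in R6/2 by 0.39 on the log2 scale (-0.39 ± 0.10, limma adjusted p = 0.0258), against -0.10 in WT, and the difference between these responses was not called (interaction -0.29, limma adjusted p = 0.377). Rbfox1 (-0.57) was lower, and Bace1 (0.32), the secretase gene whose product cleaves β subunits, Gpd1l (0.37) and Rest (0.30), a repressor of neuronal genes, were higher. With the 3' bias as a covariate 4 partner genes were lower and 2 higher, Rest then being 0.25 and not called (limma adjusted p = 0.0609). The drug response of Fgf14 in R6/2 was -0.32 with that covariate and no longer called (limma adjusted p = 0.106).

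Genes near the members on their chromosomes gave calls in both directions. Scn4b and Scn2b are flanked by Mpzl2 and Mpzl3 on one side and Tmprss4 and Il10ra on the other. Tmprss4 changed by -0.32 on vehicle (limma adjusted p = 0.0313) and -0.29 under HSP990 (limma adjusted p = 0.0181), Mpzl3 by -0.12 and -0.23 (limma adjusted p = 0.427 and 0.0463), and Mpzl2 and Il10ra were not called. The means of Tmprss4 and Mpzl3 were 4.84 and 5.78, beside the probe set median of 5.77.

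Around all members together, these 4 included, 19 distinct neighbours were measured, of which 4 were higher and 2 lower on vehicle and 4 higher and 3 lower under HSP990. Scn9a, beside Scn1a, has been described. Csrnp3, near Scn2a and Scn3a, was higher by 0.65 and 0.38, Ttc21b, near Scn1a, by 0.28 and 0.49, and Zfp202, near Scn3b, by 0.34 and 0.44. Acvrl1, an endothelial receptor gene near Scn8a, changed by -0.58 and -0.91. The medians of the neighbours were 0.10 on vehicle and 0.06 under HSP990. With the drug, Cobll1 (0.44), Csrnp3 (0.39) and Mpzl3 (0.41) were higher and Ttc21b (-0.51) was lower in WT, and Ttc21b (-0.30) was lower in R6/2. Without R6/2 vehicle replicate 7 the R6/2 response of Ttc21b was -0.28 and not called (limma adjusted p = 0.0855). With the 3' bias as a covariate the WT response of Csrnp3 was 0.36 and not called (limma adjusted p = 0.0765).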

How the data were processed

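The authors deposited 1 table of log2 expression values for 45101 probe sets on 32 arrays; that the scale is log2 is read from the range of 2.15 to 14.7, and how the values were normalized is not stated in the sources used. Per the labels' protocols, total RNA was amplified with a 3' in vitro transcription kit and labelled with biotin. Gene symbols were taken from the platform annotation given with the data, in which 34945 probe sets had 1 symbol, 932 several, 9160 none and 64 were controls. Each gene was represented by its probe set with the highest mean. Group means were fitted with limma 3.58.1 (R 4.3.3), tested on simulated data, and called at an adjusted p under 0.05 (Benjamini-Hochberg). No filter on low values was applied. Permutation tests used scipy 1.17.1, numpy 2.4.6 and pandas 2.3.3 in Python 3.11.15. Alternatives were other normalizations, probe set summaries, filters, variance models, covariates and arrays left out, with 9 added after the data were seen.

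The members, gene lists and tests were chosen with earlier results of these data known. The text names all members, those of their probe sets that were called and some that were not. It also names every measured gene of the family list, every called neighbour and the 5 likest genes per member. From the other lists it names up to 6 called genes per comparison (smallest p), and up to 3 per marker list. Further names in counts of 5 or fewer were chosen after their values were seen. Marker lists covered medium spiny neurons, all neurons, interneurons, cortex, neighbouring subcortex, astrocytes, myelin, oligodendrocyte precursors, microglia, endothelium and choroid plexus. Genotype comparisons on vehicle and under HSP990 share no arrays, but each shares its arrays with the drug comparisons. The number of arrays limits the precision. The standard error rests on 1 spread per gene shared by the 4 groups, whereas the SD of Scn4b was 0.98 on R6/2 vehicle arrays and 0.21 to 0.30 in the other groups.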

Additional observations from a re-analysis of the deposited data

How the results depend on the processing

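For each member and comparison 44 alternatives were run. Scn4b kept its direction and its call in all of them (-3.07 to -2.62 on vehicle, -3.26 to -3.02 under HSP990), and Scn2b kept both in 43 of 44 on vehicle and all 44 under HSP990. With all probe sets of a gene averaged, 1 member was called on vehicle, Scn2b changing by -0.38 (limma adjusted p = 0.0809). The same setting called 4 members under HSP990, and Scn2a turned from 0.04 to -0.30 (limma adjusted p = 0.0188). Its averaged probe sets include 1427281_at, 1445259_at and 1427280_at, whose r with the 3' bias was -0.86, -0.69 and -0.56. Scn8a under HSP990 passed in 9 of 44 alternatives, its adjusted p ranging from 0.0122 to 0.227. Pairs called for correlation numbered 2 at first, 1 after quantile normalization and 0 with the 3' bias regressed out; the cause was not tested. With the bias as a covariate 4 probe sets of the members were called between genotypes under HSP990, in place of 7. With 1 array left out, called members stayed at 2 on vehicle and were 2 to 3 under HSP990, pairs that differed in change were 23 to 26 (24 at first), and correlated pairs 0 to 2. The same arrays left out gave 0 members for both drug comparisons and the interaction.

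Replicate numbers recur across groups, and deviations of same-numbered arrays correlated with a median r of 0.071 (43 pairs, 19 of them over 0.1). For other pairs of arrays from different groups the median was -0.019 (338 pairs, 95 of them over 0.1). Whether equal numbers pair the arrays was not tested. With the replicate number as a block, 2 members were called in each genotype comparison and 0 in the other 3, and the probe sets called were 3 on vehicle, in place of 4, and 7 under HSP990. The one not called was 1439889_at of Scn8a, at -0.39 with and without the block (limma adjusted p = 0.0523 with it). Normalization before deposit was not tested here, and dim probe sets such as those of Scn9a limit what can be said of their level.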
